A study of Mus musculus with 4 samples.

Results

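The cells described here are tumour neutrophils chosen by the UMIs they held (unique molecular identifiers, each counting 1 captured mRNA): at least 2 of Slc7a11, and none of Il1a or Retnlg. They came from single-cell RNA sequencing of cells enriched for CD45 by sorting from orthotopic B6KPC3 pancreatic tumours in C57BL/6 mice. A barcode was kept if it showed 200 or more genes and 500 or more UMIs with no more than 10% of them mitochondrial. It was gated as a neutrophil with 5 or more UMIs of S100a8 plus S100a9, 2 or more of Csf3r, G0s2, Clec4d and Hdc together, and none of Cd3e, Cd79a and C1qa. Cells with 2 or more UMIs of the interferon-induced Rsad2, Ifit1 and Ifit3 were set aside. This gave 569 members among 3467 gated neutrophils and 14855 kept barcodes, called the Slc7a11-positive class below. The values of these 15 genes chose the members, so their levels are given as a description with no test.

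The 2 AT38 libraries came from mice given AT38 intraperitoneally for 7 days, starting on tumours of 7 days, at 30 mg/kg per day in divided injections in 1% carboxymethyl cellulose. The 2 vehicle libraries came from mice with the same tumours given carboxymethyl cellulose without AT38. Every library pooled 4 mice, and the p-values of AT38 against vehicle measure the spread between such pools. Those between classes of the same libraries measure the spread of the within-library differences. AT38 is known here by its code name, and the series title places the work in the study of nitrosative stress in pancreatic cancer.

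The 4 libraries held 24294215 to 34386076 UMIs, and 24 of the 17977 distinct barcodes occurred in more than 1 library, none of them a member. AT38 1 contributed 92 members and AT38 2 contributed 74, while vehicle 1 contributed 144 and vehicle 2 contributed 259. Their summed UMIs were 193152 and 144173 with AT38, against 343748 and 519944 with vehicle, so low genes were counted less precisely with AT38. The median member held 1808 UMIs and 753 genes. Levels are CPM, the UMIs of a gene scaled to a common total of all UMIs of the class in that library, and they are compared between samples and not between genes.

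Slc7a11 encodes the light chain of system xc-, the antiporter that imports cystine in exchange for glutamate and so supplies cysteine for glutathione. Its transcription is driven by ATF4, which answers amino acid shortage, and by NRF2, which answers oxidants and electrophiles. NRF2 also drives the glutamate-cysteine ligase subunits Gclc and Gclm, the sulfiredoxin Srxn1, the thioredoxin system and the ferritin chains Fth1 and Ftl1. Il1a is an alarmin cytokine, and Retnlg is a resistin-like protein gene of mouse neutrophils.

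The promoters of Slc7a11, which names the class, and of Srxn1 and Gclm, the NRF2 targets with the widest differences between AT38 and vehicle in it, are printed from RefSeq on GRCm38.p6, from 250 bases before to 50 bases after the start of transcription. They were chosen with these values known. The Slc7a11 window is chr3:50443564-50443863 on the minus strand, that of Srxn1 chr2:152105274-152105573 on the plus strand and that of Gclm chr3:122245307-122245606 on the plus strand. Capitals mark matches on either strand to TGATGNAA, the composite element of ATF4 with C/EBP factors, and to TGACNNNGC or TGAGNNNGC, the core of the antioxidant response element bound by NRF2.
Slc7a11: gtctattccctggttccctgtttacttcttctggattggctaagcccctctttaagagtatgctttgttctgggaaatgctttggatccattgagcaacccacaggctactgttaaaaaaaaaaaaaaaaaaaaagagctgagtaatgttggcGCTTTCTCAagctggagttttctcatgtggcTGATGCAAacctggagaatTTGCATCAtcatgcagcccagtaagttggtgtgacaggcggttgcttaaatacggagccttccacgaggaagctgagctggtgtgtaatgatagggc
Srxn1: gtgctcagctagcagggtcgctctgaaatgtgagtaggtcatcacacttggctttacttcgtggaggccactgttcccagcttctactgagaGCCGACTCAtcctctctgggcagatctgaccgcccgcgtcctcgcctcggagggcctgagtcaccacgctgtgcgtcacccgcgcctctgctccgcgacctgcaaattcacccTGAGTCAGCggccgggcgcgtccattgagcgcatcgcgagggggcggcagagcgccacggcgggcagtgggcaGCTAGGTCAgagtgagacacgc
Gclm: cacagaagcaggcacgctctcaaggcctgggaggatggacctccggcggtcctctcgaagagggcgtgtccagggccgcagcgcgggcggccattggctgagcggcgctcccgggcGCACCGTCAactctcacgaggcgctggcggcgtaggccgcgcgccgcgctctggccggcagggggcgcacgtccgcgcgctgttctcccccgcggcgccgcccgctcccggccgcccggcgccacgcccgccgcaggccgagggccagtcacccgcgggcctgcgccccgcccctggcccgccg
Counted from the first printed base, the Slc7a11 window held TGATGNAA at bases 185 to 192 and, on the other strand, at bases 204 to 211, and TGAGNNNGC on the other strand at bases 154 to 162. The Srxn1 window held TGAGNNNGC on the other strand at bases 93 to 101 and on the printed strand at bases 206 to 214, and TGACNNNGC on the other strand at bases 279 to 287. The Gclm window held TGACNNNGC on the other strand at bases 117 to 125. No marked match overlapped another. Among 32851 RefSeq promoters of the same length, 3.97% held TGATGNAA, 12.4% TGACNNNGC, 17.6% TGAGNNNGC and 27.8% at least 1 of the last pair. Of 27 listed NRF2 targets, 21 had a promoter in the table and 11 of these held 1 of that pair. A match is a stretch of letters and was not tested as a binding site.

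The markers given for the class were present, but Slc7a11 itself was not particular to it. Slc7a11 reached 2 UMIs in 90.7% of all gated neutrophils (95% exact Clopper-Pearson interval 89.6 to 91.6%, counting error only), which had a median of 2245 UMIs. Among cells with 2 or more Cd3e UMIs, a T cell gene, 17.5% reached 2 Slc7a11 UMIs at a median depth of 7073 UMIs, and among cells with 2 or more UMIs of the B cell gene Cd79a 4.49% did. After thinning each cell to 1000 UMIs these shares were 73.5%, 3.05% and 1.41%. The gate on Il1a removed more neutrophils than the gate on Slc7a11: alone, it kept 30.2% and 31.4% of gated neutrophils with AT38, against 36.8% and 36.6% with vehicle, while the Slc7a11 gate kept 87.8% and 87.2% with AT38, against 93.1% and 92.3% with vehicle. A gate on 0 UMIs depends on depth, and the median of 1808 UMIs in the class stood beside 2418 in Il1a-positive and 1990.0 in Retnlg-positive neutrophils.

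S100a8, a subunit of calprotectin, was at 19451 and 17902 CPM with AT38, against 27430.0 and 26963 CPM with vehicle, and was seen in 98.4% of members. G0s2, an inhibitor of lipolysis, was at 2661 and 2164 CPM with AT38, against 1868 and 2175 CPM with vehicle. Among marker genes that the rule did not use, Acod1, which makes itaconate, had a UMI in 94.9% of members and Clec4e, the receptor Mincle, in 90.3%. The summed level of 20 neutrophil genes was 36593 and 39404 CPM with AT38, against 35605 and 41408 CPM with vehicle, and none of the 20 was at 0.

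Markers of other cells were present in many members. The 10 dendritic genes summed to 4033 and 527 CPM with AT38, against 695 and 1487 CPM with vehicle, 1 of them was at 0, and 63.9% of the Cd74 UMIs of members sat in 5 cells. The 10 monocyte genes summed to 1165 and 569 CPM with AT38, against 593 and 844 CPM with vehicle, and the 10 macrophage genes to 549 and 347 CPM with AT38, against 256 and 398 CPM with vehicle. The 10 T cell genes summed to 72.5 and 55.5 CPM with AT38, against 96.0 and 106 CPM with vehicle, and 8 of 9 red cell genes were at 0. In all, 279 of the 569 members held 2 or more UMIs of the markers of another cell type. The counts of genes below were also made without them, which left 76 members with AT38 and 214 with vehicle.

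Within each library Slc7a11 was higher in the class, which the gate made for it, than in the other 5 classes. Members held 2 to 59 Slc7a11 UMIs, with a median of 6 in AT38 1, 7 in AT38 2, 11.5 in vehicle 1 and 8 in vehicle 2. Its level was 3593 and 4051 CPM with AT38, against 5393 and 4687 CPM with vehicle, so that both vehicle libraries lay above both AT38 libraries. In Il1a-positive neutrophils it was at 2639 and 2726 CPM with AT38, against 4220.4 and 3742 CPM with vehicle, and in those positive for both Il1a and Retnlg at 2686 and 2722 CPM with AT38, against 4134 and 3483 CPM with vehicle, again without overlap. In Retnlg-positive neutrophils it was at 3485 and 2503 CPM with AT38, against 3016 and 2885 CPM with vehicle, and in interferon-high neutrophils, those set aside for Rsad2, Ifit1 and Ifit3, at 3025 and 2939.7 CPM with AT38, against 3967 and 2676 CPM with vehicle. In these last 2 classes the AT38 and vehicle libraries overlapped.

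**Figure D1:**
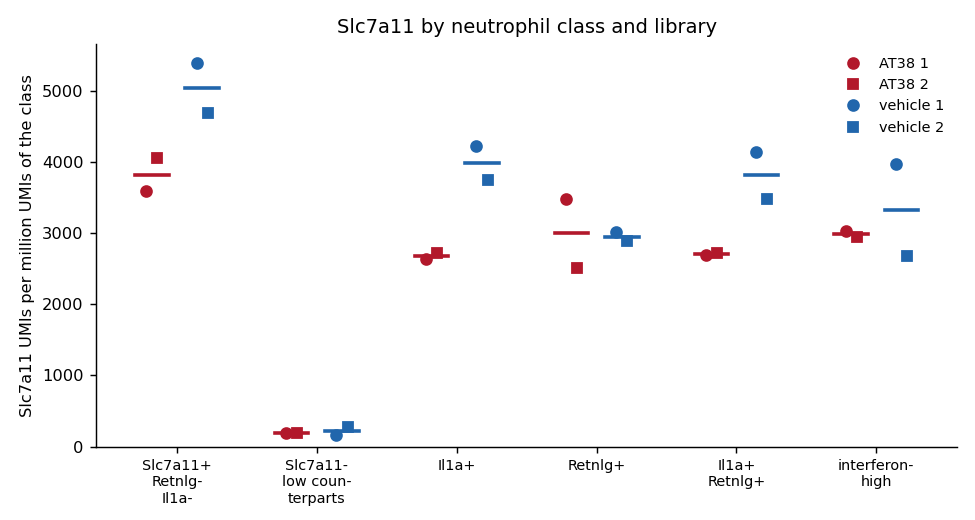
Slc7a11 level (y axis, CPM, the UMIs scaled to a common class total) in 6 neutrophil classes (x axis), with 1 point per library and the mean of each treatment as a bar. In the Slc7a11-positive class both AT38 libraries lie below both vehicle libraries, and the Slc7a11-low counterparts, which the gate holds to 0 or 1 UMI per cell, average 195 CPM with AT38 and 215 CPM with vehicle.

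The class made up a smaller part of the neutrophils in both AT38 libraries. It held 13.2% and 11.7% with AT38, against 17.4% and 19.7% with vehicle among gated neutrophils, a mean of 12.5 ± 1.08% with AT38 and 18.6 ± 1.63% with vehicle (SD, n = 2 each). The difference was -6.13 percentage points and the libraries did not overlap, but 2 against 2 libraries cannot go below p = 0.333 in the two-sided exact permutation test, which is the value found. Of all kept barcodes the class was 2.52% and 2.31% with AT38, against 4.80% and 5.19% with vehicle, without overlap and with the same exact permutation p. Gated neutrophils as a whole were 19.1% and 19.7% of kept barcodes with AT38, against 27.5% and 26.3% with vehicle.

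The other classes are set beside it without a claim of change, since the same smallest p applies. Members and their Slc7a11-low counterparts, which met every other gate with 0 or 1 Slc7a11 UMI, together made 15.7% and 15.5% with AT38, against 19.9% and 22.1% with vehicle. Il1a-positive neutrophils, the class with most cells, made 53.7% and 49.9% with AT38, against 45.9% and 47.1% with vehicle, and interferon-high neutrophils 12.8% and 13.3% with AT38, against 11.4% and 8.92% with vehicle. With the rule applied to counts thinned to 1000 UMIs per barcode, the Slc7a11-positive class made 18.0% and 16.3% with AT38, against 25.8% and 28.3% with vehicle. Since shares sum to the whole, fewer cells of 1 class and more of another cannot be told apart.

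**Figure D2:**
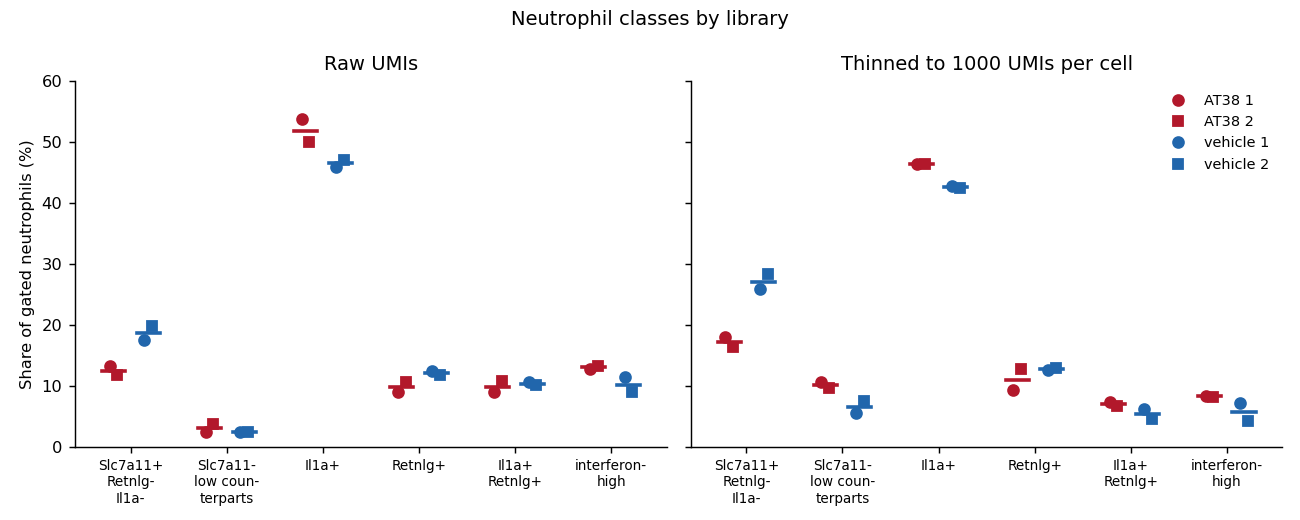
Share of gated neutrophils (y axis, %) in 6 classes (x axis), from raw UMIs on the left and after thinning each barcode to 1000 UMIs on the right, with 1 point per library and the mean of each treatment as a bar. The Slc7a11-positive class lies lower in both AT38 libraries than in both vehicle libraries in each panel, and Il1a-positive neutrophils lie higher.

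Within the class, AT38 was compared with vehicle to ask what the compound changed in these cells. UMIs were summed over the members of each library and tested with edgeR's quasi-likelihood test, with Benjamini-Hochberg adjustment over all genes tested and the 15 genes of the rule left out. Of 3194 genes, 4 passed an adjusted p of 0.05 (0.125%), all of them lower with AT38: Srxn1, Ccr7, Fscn1 and Ccl22. An unadjusted p under 0.05 was reached by 272 genes.

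Srxn1, the sulfiredoxin that reduces overoxidised peroxiredoxins, was at 41.4 and 6.94 CPM with AT38, against 247 and 169 CPM with vehicle. Both AT38 libraries lay far below both vehicle libraries. The log2 fold change was -2.98 ± 0.48 (SE), with an edgeR adjusted p of 0.0304. Its 182 UMIs were spread over 100 members, and few of these UMIs came from the AT38 libraries. Srxn1 stayed lower with each library left out in turn, with log2 fold changes of -4.87 without AT38 1 to -2.33 without AT38 2. Without AT38 1, the AT38 side was AT38 2 alone, at 6.94 CPM. In a sum of 144173 UMIs that is near the lowest level that can be seen. The log2 fold change of Srxn1 was -3.07, edgeR adjusted p = 0.0851, in cells of 2000 to 6000 UMIs, -2.98, edgeR adjusted p = 0.0695, without barcodes with markers of other cells, and -3.07, edgeR adjusted p = 0.268, without the cells described next. The call was lost in these 3 settings while the fold was as large as with all members. Over all alternatives the adjusted p was 1.37e-09 to 0.268.

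Ccr7, Fscn1 and Ccl22 are the chemokine receptor, actin bundler and chemokine of mature migratory dendritic cells. Ccr7 was at 15.5 and 0 CPM with AT38, against 189 and 187 CPM with vehicle (log2 fold change -4.38 ± 0.55, edgeR adjusted p = 0.00914). Fscn1 was at 0 in both AT38 libraries, against 116 and 82.7 CPM with vehicle, and Ccl22 was at 0 in both AT38 libraries, against 72.7 and 96.2 CPM with vehicle (edgeR adjusted p = 0.0211 for each). A total of 0 AT38 members and 4 vehicle members held 2 or more UMIs of the 3 genes together. Those 4 cells carried 310 such UMIs at a median depth of 13767 UMIs, against 1808 over all members. Without cells of this kind no gene passed the edgeR test, with 237 genes at an unadjusted p under 0.05. DESeq2, with all cells kept, called 4 genes. The count was 54 without AT38 1, 59 without AT38 2, 20 without vehicle 1 and 49 without vehicle 2, where the lone library of a treatment is assumed to vary like the others.

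Most of the tested NRF2 targets had log2 fold changes below 0, and Srxn1 alone passed. Of 27 listed targets 20 had enough UMIs to be tested, 19 of these had log2 fold changes below 0, and 13 had AT38 libraries that did not overlap the vehicle libraries, as had 39.7% of all genes tested. Their median log2 fold change was -0.48, against -0.0054 over all genes tested. Gclm, the modifier subunit of glutamate-cysteine ligase, was at 15.5 and 27.7 CPM with AT38, against 166 and 78.9 CPM with vehicle, a log2 fold change of -2.53 ± 0.56 that did not pass (edgeR adjusted p = 0.146). Esd, which hydrolyses S-formylglutathione, was at 72.5 and 62.4 CPM with AT38, against 364 and 185 CPM with vehicle, with a log2 fold change of -2.02 ± 0.39 (edgeR adjusted p = 0.0841). For both genes the AT38 libraries lay below the vehicle libraries, and the AT38 levels of Gclm rested on few UMIs.

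Targets with smaller log2 fold changes were as follows. Txn1, thioredoxin, was at 979 and 1547 CPM with AT38, against 2234 and 1683 CPM with vehicle, with the AT38 libraries lower. Fth1, the ferritin heavy chain, was at 26974 and 34022 CPM with AT38, against 38691 and 33549.8 CPM with vehicle, and Hmox1, haem oxygenase 1, was at 109 and 159.5 CPM with AT38, against 233 and 84.6 CPM with vehicle. The libraries of these last 2 genes overlapped. Osgin1 was the exception in direction, at 289.9 and 277 CPM with AT38, against 183 and 117 CPM with vehicle, and did not pass (log2 fold change 0.90 ± 0.28, edgeR adjusted p = 0.366).

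In all other gated neutrophils of the same libraries 170 of 8557 genes passed (1.99%), with 60 higher (0.701%) and 110 lower (1.29%) with AT38, and 44% of the genes did not overlap between treatments. There, 11 of 26 tested NRF2 targets fell and 0 rose. Srxn1 was at 42.4 and 34.1 CPM with AT38, against 139 and 117 CPM with vehicle in those cells, a log2 fold change of -1.78 ± 0.15 (edgeR adjusted p = 1.27e-06). Gclm was at 22.8 and 26.7 CPM with AT38, against 78.3 and 72.6 CPM with vehicle in those cells, a log2 fold change of -1.65 ± 0.18 (edgeR adjusted p = 1.64e-05). The test of the difference, the AT38 effect in the class minus that in all other gated neutrophils, gave -1.26 ± 0.50 for Srxn1 (edgeR adjusted p = 0.839) and -0.86 ± 0.60 for Gclm (edgeR adjusted p = 1). Of 25 NRF2 targets tested 0 passed it, beside 0.169% of all genes, a share at which a list of this length says nothing of its members.

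**Figure D3:**
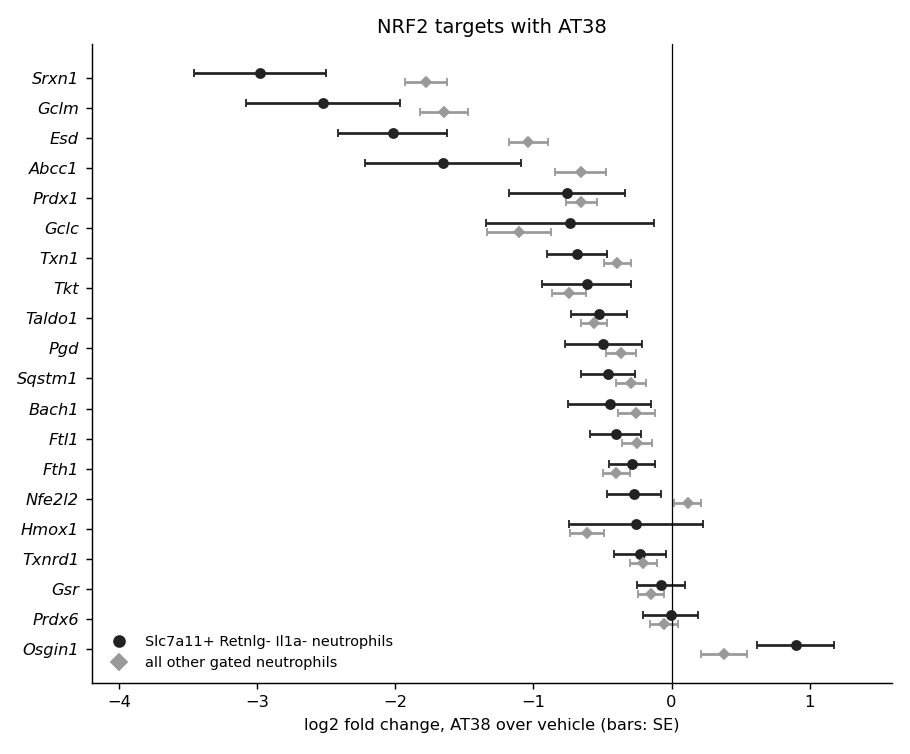
log2 fold change of AT38 over vehicle (x axis, bars show the SE) for the 20 NRF2 targets tested in the Slc7a11-positive class (black circles), with the same genes in all other gated neutrophils (grey diamonds). In the class 19 of the 20 lie below 0, with Srxn1 at -2.98, Gclm at -2.53 and Esd at -2.02, and Osgin1 lies above 0 at 0.90.

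Among inflammatory genes Cxcl3 differed most. Cxcl3, a chemokine that draws neutrophils through CXCR2, was at 725 and 347 CPM with AT38, against 1754 and 2002 CPM with vehicle, a log2 fold change of -1.82 ± 0.29 that missed the threshold (edgeR adjusted p = 0.0629). In all other gated neutrophils Cxcl3 fell by 1.02 on the log2 scale (edgeR adjusted p = 0.00014). None of the 26 tested inflammatory genes passed in the class, with 9 above 0 and 17 below. Cxcl1, a related chemokine, was at 77.7 and 48.6 CPM with AT38, against 122 and 131 CPM with vehicle. Il1rn, the interleukin 1 receptor antagonist, was at 3153 and 3309 CPM with AT38, against 2135 and 2487 CPM with vehicle, the AT38 libraries being the higher ones. Neither of these passed.

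Interferon-regulated genes leaned the other way. Of 18 tested, 14 had log2 fold changes above 0, with a median of 0.36, and none passed. The rule capped members at 1 UMI of Rsad2, Ifit1 and Ifit3 together. Cells set aside by this cap made 12.8% and 13.3% of gated neutrophils with AT38, against 11.4% and 8.92% with vehicle. The part of the cap in the lean was not tested. Ifitm3, which restricts virus entry, was at 1274 and 812 CPM with AT38, against 495 and 508 CPM with vehicle, with a log2 fold change of 1.03 ± 0.22 and an edgeR adjusted p of 0.134. Isg15, a ubiquitin-like modifier, was at 337 and 375 CPM with AT38, against 218 and 271 CPM with vehicle. The AT38 libraries were higher for both genes.

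None of the tested genes of suppression and of reactive oxygen and nitrogen species passed in the class. Arg1 and Nos2 did not have enough UMIs across the libraries to be tested. Arg2, mitochondrial arginase, was at 347 and 305 CPM with AT38, against 401 and 396 CPM with vehicle (log2 fold change -0.33 ± 0.21, edgeR adjusted p = 0.74). Cybb, the catalytic subunit of the phagocyte NADPH oxidase, had a log2 fold change of -0.10 ± 0.42 (edgeR adjusted p = 0.98) and overlapping libraries. Arg1, cytosolic arginase, was at 5.18 and 0 CPM with AT38, against 20.4 and 154 CPM with vehicle, from 1 UMI with AT38. Nos2, inducible nitric oxide synthase, had 0 UMIs with AT38, against 3 and 1 with vehicle. Of the suppression list 16 genes were tested, 7 above 0 and 9 below, and of the oxidase and superoxide list 9, 6 above 0 and 3 below, and none passed. The class markers Acod1, at 4328 and 5403 CPM with AT38, against 5702 and 5339 CPM with vehicle, and Clec4e, at 2288 and 3010.3 CPM with AT38, against 3756 and 3681 CPM with vehicle, had edgeR adjusted p of 0.779 and 0.406.

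Protease inhibitors of neutrophils were among the lower genes that missed the threshold. Slpi, which protects tissue from elastase, was at 953 and 1387 CPM with AT38, against 2391 and 2050.2 CPM with vehicle, a log2 fold change of -0.97 ± 0.19 (edgeR adjusted p = 0.0946). Stfa2l1, a stefin, was at 243 and 347 CPM with AT38, against 742 and 552 CPM with vehicle (log2 fold change -1.18 ± 0.24, edgeR adjusted p = 0.0946). Fabp5, a fatty acid carrier, was at 88.0 and 90.2 CPM with AT38, against 416 and 196 CPM with vehicle (log2 fold change -1.79 ± 0.40, edgeR adjusted p = 0.175). Glycolysis and hypoxia genes lay on both sides, with 15 above 0 and 14 below. Of ATF4 targets 8 of 10 lay above 0, led by the transcription factor Atf3 at 792 and 742 CPM with AT38, against 459.6 and 485 CPM with vehicle (log2 fold change 0.66 ± 0.18, edgeR adjusted p = 0.286).

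The class was next compared within libraries with Il1a-positive neutrophils, which held Il1a UMIs, none of Retnlg and any number of Slc7a11 UMIs, the other gates being the same. This comparison, like that with Retnlg-positive neutrophils, was added once the small number of Slc7a11-low cells was known. Cells were assigned by 3 genes left out of the test, but other genes tied to these follow them, so the calls describe the classes. Of 5911 genes, 964 passed (16.3%), with 576 higher (9.74%) and 388 lower (6.56%) in the class. Fth1 was higher in 4 of 4 libraries, at 26974, 34022, 38691 and 33549.8 CPM in the class in AT38 1, AT38 2, vehicle 1 and vehicle 2, against 19078, 21320.4, 29364 and 25568 CPM in Il1a-positive neutrophils. Its log2 fold change was 0.61 ± 0.08 (edgeR adjusted p = 1.28e-07). Of 24 tested NRF2 targets 9 were higher and 1 lower. Among the higher ones were Taldo1 of the pentose phosphate pathway (1.01 ± 0.11), Txn1 (0.67 ± 0.10) and the ferritin light chain Ftl1 (0.51 ± 0.09).

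Chemoattractant receptor and protease inhibitor genes were among those higher in the class than in Il1a-positive neutrophils. Cxcr4, the receptor for the marrow chemokine CXCL12, averaged 895 ± 169 CPM in the class and 427 ± 18.4 CPM in Il1a-positive neutrophils (SD, n = 4 each), with a log2 fold change of 1.16 ± 0.10. The chemoattractant receptor list had 9 of 14 tested genes higher and 0 lower, including C5ar1 for complement C5a (0.83 ± 0.11), Ptafr for platelet-activating factor (0.63 ± 0.09) and Ccr1 (0.65 ± 0.09). Slpi (1.24 ± 0.10), Stfa2l1 (1.62 ± 0.12), Pglyrp1, which binds bacterial cell wall (1.29 ± 0.14), and Wfdc17 (1.45 ± 0.13) were also higher. Each of these 8 genes was higher in 4 of 4 libraries.

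The largest rises also took in the metalloreductase Steap4 (2.07 ± 0.34), the oxidant-gated cation channel Trpm2 (1.72 ± 0.30), the protein kinase A subunit Prkar2b (1.65 ± 0.37), the retinol dehydrogenase Rdh12 (1.62 ± 0.22), the adaptor Sh2d3c (1.54 ± 0.20) and the antiviral enzyme Oas3 (1.53 ± 0.27). Of 23 tested interferon-regulated genes 11 were higher and 0 lower, such as Ifitm1 (1.30 ± 0.12) and Slfn4 (1.27 ± 0.12). Both classes were capped at 1 UMI of Rsad2, Ifit1 and Ifit3 together, a cap that is stricter in deeper cells. Median depth was 2418 UMIs in Il1a-positive neutrophils and 1808 in the class, and the part of this cap was not tested. Acod1 was higher (0.60 ± 0.08, edgeR adjusted p = 1.1e-06), and so was Arg2 (0.86 ± 0.12, edgeR adjusted p = 1.61e-06). Without barcodes with markers of other cells Acod1 did not pass (0.31, edgeR adjusted p = 0.0553). Srxn1 passed at 0.71 ± 0.22 (edgeR adjusted p = 0.0223). It did not pass without vehicle 2 at a like fold (0.68, edgeR adjusted p = 0.207), nor, at smaller folds, without vehicle 1 (0.36, edgeR adjusted p = 0.477), in cells thinned to 1000 UMIs (0.43, edgeR adjusted p = 0.264) or with DESeq2 (0.51, DESeq2 adjusted p = 0.364).

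Genes lower in the class than in Il1a-positive neutrophils included cytokines and hypoxia genes. Markers of other cells differed beside them. The dendritic list summed to 4033, 527, 695 and 1487 CPM in the class, against 3654, 2883, 2699.9 and 4712 CPM in Il1a-positive neutrophils, lower in the class in 3 of 4 libraries. The natural killer cell list summed to 20.7, 20.8, 23.3 and 28.8 CPM in the class, against 397, 138, 54.6 and 89.8 CPM in Il1a-positive neutrophils, and the T cell list to 72.5, 55.5, 96.0 and 106 CPM in the class, against 151, 142, 114 and 175 CPM in Il1a-positive neutrophils. Both were lower in the class in 4 of 4 libraries, and 6 of the 10 natural killer cell genes were at 0 in it. Il23a, a subunit of interleukin 23, averaged 169 ± 22.0 CPM in the class and 461 ± 51.0 CPM in Il1a-positive neutrophils (log2 fold change -1.32 ± 0.13). Tnf (-0.57 ± 0.09), the angiogenic factor Vegfa (-0.62 ± 0.10), the hexokinase Hk2 (-0.52 ± 0.12) and the interferon-gamma-induced chemokine Cxcl9 (-2.24 ± 0.39) were lower, as were 14 of 16 ribosomal protein genes. Without barcodes with markers of other cells Il23a (-1.72, edgeR adjusted p = 2.58e-06) and Tnf (-1.01, edgeR adjusted p = 4.21e-06) passed as well. Clec4e (-0.07 ± 0.09, edgeR adjusted p = 0.652) and Cxcl3 (-0.09 ± 0.25, edgeR adjusted p = 0.872) did not pass.

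Some of the lowest genes sit beside one another on a chromosome. Ckap2l, a spindle protein gene at -2.27 ± 0.17, lies 2.40 kb from Il1a on the same strand of chromosome 2 and so neighbours a gene of the rule. Adam28 (-2.43 ± 0.45) and Adamdec1 (-2.27 ± 0.28) are metalloproteinase-family genes 23.9 kb apart on chromosome 14. P2ry14, a receptor for UDP-glucose (-1.98 ± 0.34), and the receptor Gpr171 (-1.84 ± 0.31) lie 12034 bases apart on chromosome 3. Prss2, a trypsinogen of pancreatic acinar cells (-1.91 ± 0.30), averaged 17.0 ± 4.61 CPM in the class and 89.1 ± 47.7 CPM in Il1a-positive neutrophils. The methyltransferase Prmt1 (-1.81 ± 0.44) completed the largest falls. The 10 acinar genes summed to 31.1, 27.7, 90.2 and 21.2 CPM in the class, against 152, 163, 64.9 and 52.6 CPM in Il1a-positive neutrophils. Without barcodes with markers of other cells Adamdec1 passed (-2.75, edgeR adjusted p = 3.12e-05), while Cxcl9, Adam28, P2ry14, Gpr171 and Prss2 had too few UMIs to be tested, so the part of other cells in them was not tested. The number of genes passing was 536 in cells thinned to 1000 UMIs, 565 with DESeq2, 346 without barcodes with markers of other cells and 551 without vehicle 2.

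Against Retnlg-positive neutrophils, which held Retnlg UMIs, none of Il1a and any number of Slc7a11 UMIs, 255 of 2929 genes passed (8.71%), with 113 higher (3.86%) and 142 lower (4.85%) in the class. Granule and maturation genes, many of them made in the marrow, had a median log2 fold change of -3.07, against 0.024 over all genes tested: of 15 tested 9 were lower and 0 higher. Ngp, neutrophilic granule protein, was at 0, 0, 5.82 and 7.69 CPM in the class, against 1448, 1238, 9956 and 9275 CPM in Retnlg-positive neutrophils. Camp, the cathelicidin, was at 15.5, 6.94, 5.82 and 7.69 CPM in the class, against 248, 578, 5921 and 4842 CPM in Retnlg-positive neutrophils. Both genes were at 15.5 CPM or less in every library of the class. Mmp8, neutrophil collagenase (-4.16 ± 0.23), the neutrophil surface protein Ly6g (-5.87 ± 0.50), Lcn2, which binds siderophores (-4.31 ± 0.55), the chitinase-like Chil3 (-4.66 ± 0.25), the glucokinase Adpgk (-4.49 ± 0.45), Ifitm6 (-4.31 ± 0.53) and Pglyrp1 (-1.99 ± 0.17) were lower too.

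Inflammatory genes and some hypoxia and glycolysis genes were among those higher in the class than in Retnlg-positive neutrophils. Other hypoxia and glycolysis genes were lower. Siglecf, a sialic acid-binding lectin, was at 104, 111, 58.2 and 96.2 CPM in the class, against 7.74, 5.45, 8.51 and 19.3 CPM in Retnlg-positive neutrophils (2.68 ± 0.39). Vegfa averaged 618 ± 111 CPM in the class and 196 ± 41.2 CPM in Retnlg-positive neutrophils (1.47 ± 0.18), and Hk2 averaged 249.8 ± 78.1 CPM in the class and 68.6 ± 11.4 CPM in Retnlg-positive neutrophils (1.57 ± 0.22). Mif was higher as well (1.56, edgeR adjusted p = 3.67e-05). The glucose transporter Slc2a3 (-1.19, edgeR adjusted p = 0.000686) and the lactate exporter Slc16a3 (-0.69, edgeR adjusted p = 0.0109) were lower. Of 26 tested inflammatory genes 12 were higher and 1 lower. Among the higher ones were the chemokines Ccl3 (1.22 ± 0.14) and Ccl4 (0.97 ± 0.15), Tnf (1.25 ± 0.17), the adhesion molecule Icam1 (1.40 ± 0.20) and Clec4e (0.76 ± 0.17, edgeR adjusted p = 0.00588). The anti-apoptotic genes Bcl2a1a (1.31 ± 0.20), Bcl2a1b (0.95 ± 0.16) and Bcl2a1d (1.21 ± 0.21) were higher together, but they are near-identical copies among which reads may be split.

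The largest rises were completed by the calcineurin regulator Rcan1 (3.27 ± 0.40), leukotriene C4 synthase Ltc4s (2.63 ± 0.44), the kinase Pim3 (2.09 ± 0.33), the RNA polymerase subunit Polr2f (1.77 ± 0.44), the corepressor Bcor (1.70 ± 0.36) and the mitochondrial chaperone Hspa9 (1.64 ± 0.33). For Rcan1, 52.1% of its 119 UMIs in members sat in 5 cells. Of 18 tested NRF2 targets 0 were higher and 2 lower, Tkt (-1.69 ± 0.20) and Taldo1 (-0.68 ± 0.17) of the pentose phosphate pathway. Fth1 (0.14 ± 0.13, edgeR adjusted p = 0.561), Acod1 (0.23 ± 0.15, edgeR adjusted p = 0.363) and Srxn1 (-0.06 ± 0.28, edgeR adjusted p = 0.925) did not pass. The dendritic list summed to 4033, 527, 695 and 1487 CPM in the class, against 418, 753, 3674 and 3347 CPM in Retnlg-positive neutrophils. Its part in the calls was not tested by itself. Fewer genes passed without barcodes with markers of any other cell type, a setting that also left fewer cells, as given in the last section. Without AT38 2 131 genes passed, without vehicle 2 101, and with DESeq2 117.

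**Figure D4:**
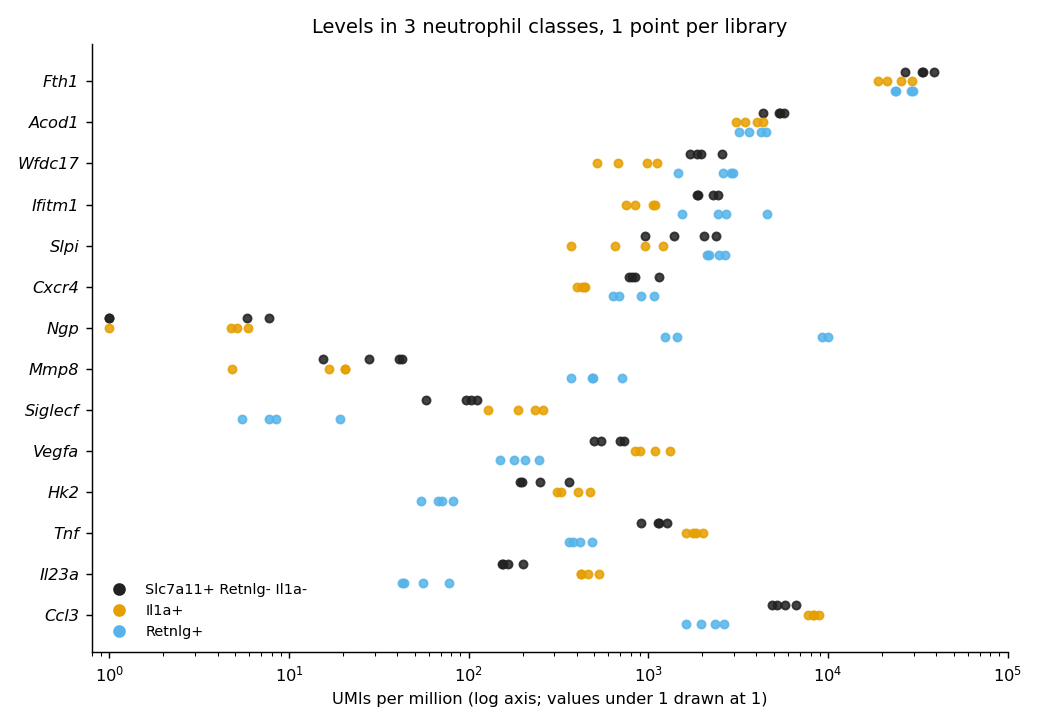
Levels (x axis, CPM on a log scale, values under 1 drawn at 1) of 14 genes in the Slc7a11-positive class (black), Il1a-positive (orange) and Retnlg-positive (blue) neutrophils, with 1 point per library. Cxcr4 lies higher in the class than in Il1a-positive neutrophils, Ngp and Mmp8 lie far lower in it than in Retnlg-positive neutrophils, and Siglecf, Vegfa, Tnf, Il23a and Ccl3 lie between the other classes.

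The Slc7a11-low counterparts met every gate of the class but held 0 or 1 Slc7a11 UMI. They numbered 92 cells, with 25554 to 68110.0 UMIs per library. In this comparison 119 of 1564 genes passed (7.61%), 67 higher (4.28%) and 52 lower (3.32%) in the class. Inflammatory genes were higher: of 23 tested 10 were higher and 0 lower, with a median log2 fold change of 0.93, against -0.012 over all genes tested. Il1f9, interleukin 36 gamma, was at 305, 499, 896 and 881 CPM in the class, against 78.3, 88.3, 103 and 173 CPM in the counterparts (log2 fold change 2.51 ± 0.32, edgeR adjusted p = 0.00137). Cxcl3 (2.02 ± 0.27), Ccl4 (1.69 ± 0.31), Ccl6 (1.32 ± 0.28) and Wfdc17 (2.10 ± 0.29) were higher in 4 of 4 libraries.

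Genes of iron storage, itaconate and arginine metabolism were higher as well. Fth1 averaged 33309 ± 4819 CPM in the class and 13643 ± 4854 CPM in the counterparts (SD, n = 4 each), with a log2 fold change of 1.31 ± 0.23 (edgeR adjusted p = 0.00993). Acod1 averaged 5193 ± 598 CPM in the class and 1897 ± 671 CPM in the counterparts (1.50 ± 0.24, edgeR adjusted p = 0.00658). Arg2 averaged 362 ± 45.4 CPM in the class and 117 ± 34.3 CPM in the counterparts (1.65 ± 0.32, edgeR adjusted p = 0.0153), and Clec4e averaged 3184 ± 685 CPM in the class and 1764 ± 961 CPM in the counterparts (0.94 ± 0.26, edgeR adjusted p = 0.0418). Without vehicle 2 the calls of Acod1 (1.49, edgeR adjusted p = 0.0778) and Fth1 (1.40, edgeR adjusted p = 0.0778) were lost with log2 fold changes close to the first ones. Without barcodes with markers of other cells both passed with smaller ones, Acod1 at 0.94, edgeR adjusted p = 0.0318, and Fth1 at 0.65, edgeR adjusted p = 0.0318. With all other gated neutrophils in place of the counterparts Acod1 was at 0.44, edgeR adjusted p = 0.000368, and Fth1 at 0.45, edgeR adjusted p = 3.04e-05. Clec4e passed in 8 of 17 alternatives, with log2 fold changes of 0.10 to 1.38 and adjusted p up to 0.585, and Arg2 in 13 of 17, with log2 fold changes of 0.59 to 2.08. Of 15 tested NRF2 targets 3 were higher, Fth1, the factor's own gene Nfe2l2 (1.17 ± 0.29) and thioredoxin reductase Txnrd1 (1.14 ± 0.29), and 0 lower. Of 8 tested ATF4 targets none passed. Slc3a2, the heavy chain of system xc-, averaged 245 ± 27.0 CPM in the class and 329.9 ± 138 CPM in the counterparts and did not pass (edgeR adjusted p = 0.453).

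Genes of cell survival, cell death and chemoattractant sensing were among those higher. They included the anti-apoptotic Bcl2a1b (1.27 ± 0.27), the death receptor Fas (1.89 ± 0.44), the pro-apoptotic BH3 protein Bcl2l11 (1.13 ± 0.32), Ptafr (1.25 ± 0.26) and C5ar1 (0.94 ± 0.26). Cxcl10 (2.72 ± 0.55), the ectoenzyme Bst1 (2.36 ± 0.58), the cytokine Tnfsf14 (2.09 ± 0.48) and Pts of tetrahydrobiopterin synthesis (2.09 ± 0.43) completed the largest rises. The largest falls were the ribosomal Rpl4 (-1.86 ± 0.43), the nucleolar Nol7 (-1.79 ± 0.37), the lymphoid regulator Ikzf1 (-1.72 ± 0.36), Dbi (-1.66 ± 0.46), the chaperone Hsp90aa1 (-1.66 ± 0.29), Scaf11 (-1.63 ± 0.36), Anp32b (-1.60 ± 0.38) and the initiation factor Eif5b (-1.57 ± 0.39). Of 15 tested ribosomal genes 6 were lower and 0 higher, and the glycolytic enzymes Gpi1 (-1.53 ± 0.30) and Tpi1 (-1.23 ± 0.31) were lower. The lactate exporter Slc16a3 was higher (1.09, edgeR adjusted p = 0.0381).

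The counterparts carried fewer neutrophil transcripts and, in some libraries, more of other cells. Over AT38 1, AT38 2, vehicle 1 and vehicle 2 the 20 neutrophil genes summed to 36593, 39404, 35605 and 41408 CPM in the class, against 25632, 26893, 14183 and 32929 CPM in the counterparts. The dendritic list summed to 4033, 527, 695 and 1487 CPM in the class, against 1017, 8640.3, 587 and 307 CPM in the counterparts, and the T cell list to 72.5, 55.5, 96.0 and 106 CPM in the class, against 391, 53.0, 455 and 211 CPM in the counterparts. Their part in the result was not tested by itself, since leaving out barcodes with markers of other cells also left fewer cells. Without barcodes with markers of other cells 24 genes passed, without AT38 2 69, without vehicle 1 10 and without vehicle 2 only 2, while 228 passed without AT38 1. With all other gated neutrophils in place of the counterparts 482 of 6848 genes passed (7.04%), 4.22% higher and 2.82% lower.

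Levels were also read against the number of Slc7a11 UMIs per cell, as a description over cells that share libraries. The gate used these same UMIs, so the order of the bins was not tested and gives no support for the class. Each bin sums its cells, so deep cells weigh more. The 41 cells with 1 Slc7a11 UMI held 117055 UMIs at a median of 1417. Just outside the gate, the 41 counterparts with 1 Slc7a11 UMI held 1768 CPM of Acod1 and 13592 CPM of Fth1. Just inside it, the 36 members with 2 held 3219.7 CPM of Acod1 and 29207 CPM of Fth1. The 260 members with 9 or more held 5767 CPM of Acod1 and 37773 CPM of Fth1. Acod1 was higher in each bin of members than in the one before, while Fth1 and Arg2 were not ordered throughout. Gclm was at 65.7 CPM in members with 2 Slc7a11 UMIs, 26.9 CPM with 3 to 4, 43.1 CPM with 5 to 8 and 130.3 CPM with 9 or more. The bin of 9 or more held 28 cells of AT38 1, 28 of AT38 2, 86 of vehicle 1 and 118 of vehicle 2. Median depth was 1539.5 UMIs in members with 2 Slc7a11 UMIs and 1959.5 in those with 9 or more.

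**Figure D5:**
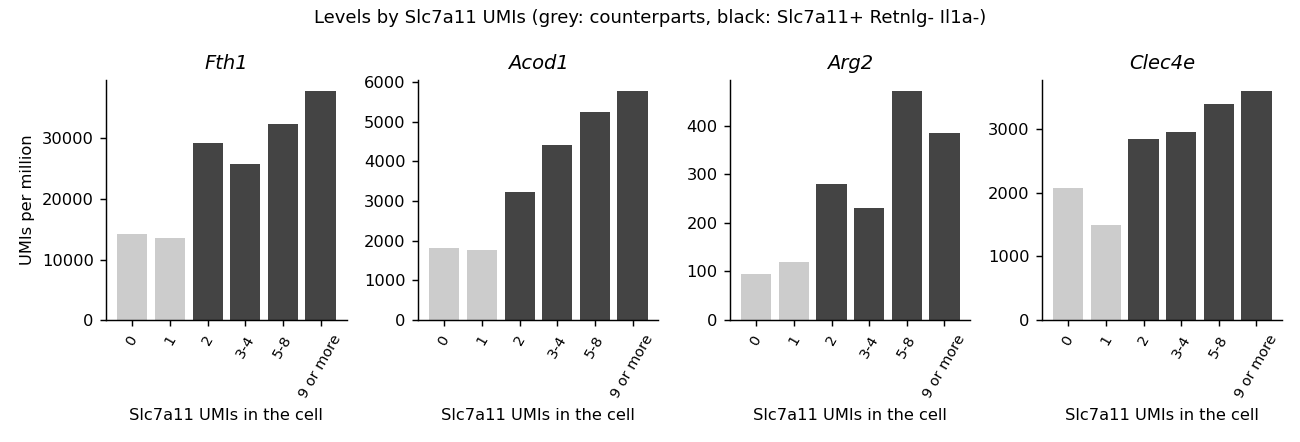
Levels of Fth1, Acod1, Arg2 and Clec4e (y axes, CPM) summed over the cells of all 4 libraries by the number of Slc7a11 UMIs in the cell (x axes), for the Slc7a11-low counterparts in grey and the Slc7a11-positive class in black. Acod1 is at 1768 CPM with 1 Slc7a11 UMI, 3219.7 CPM with 2 and 5767 CPM with 9 or more, and bins hold 36 to 260 cells.

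Whether AT38 acted differently in the class was tested against both references. Against the Slc7a11-low counterparts 0 of 2159 genes passed by edgeR's quasi-likelihood test (0%), with 62 at an unadjusted p under 0.05, and DESeq2 also called 0. The count was 9 without AT38 1, 1 without AT38 2, 1 without vehicle 1 and 17 without vehicle 2. Against all other gated neutrophils 13 of 7691 passed (0.169%), 2 with a positive difference (0.026%) and 11 with a negative one (0.143%). Ltf, lactoferrin of the specific granules, was at 82.8 and 62.4 CPM with AT38, against 34.9 and 15.4 CPM with vehicle in the class, and at 256 and 101 CPM with AT38, against 554 and 500.3 CPM with vehicle in all other gated neutrophils. The difference of the log2 fold changes was 3.16 ± 0.45 (edgeR adjusted p = 1.14e-06), and Ltf rested on 45 UMIs in 27 members. Dock10, a guanine exchange factor, was the other gene with a positive difference (1.54 ± 0.37, edgeR adjusted p = 0.0396), named after its value was seen. Ccr7, Fscn1 and Ccl22 were among the 11 with a negative one. Without cells with 2 or more UMIs of those 3 genes 4 genes passed, and in cells thinned to 1000 UMIs none did, with 192 at an unadjusted p under 0.05. DESeq2 called 3, and 44 passed without AT38 2.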

How the data were processed

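The authors' matrices contain UMI counts for each gene and barcode as deposited, not normalized, made with Cell Ranger 3.1.0 on mm10, per the submitters' processing notes, from 10x 3′ v3.1 libraries, per the labels' protocols. The annotation release is not given in the sources used here. The members, gene lists and tests were chosen with earlier results of these data known.

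UMIs of a class were summed by library and tested with edgeR 4.0.16 in R 4.3.3 (TMM, filterByExpr, robust quasi-likelihood fit, Benjamini-Hochberg, threshold 0.05), with a library term between classes and the 15 rule genes left out. An SE is the log2 fold change over the square root of F. Shares were compared by exact permutation. The fits were tested on simulated counts. Alternatives used DESeq2 1.42.0, other gates and filters, thinning to 1000 UMIs and each library left out. No doublet caller was run, and barcodes with 2 or more UMIs of the markers of another cell type were dropped as an alternative. Depth was 24294215 to 34386076 UMIs per library, and intervals cover counting error only.

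The naming rule took the 8 largest rises and 8 largest falls that passed, averaged 20 CPM or more and went 1 way in the libraries compared, then up to 4 genes of lowest p from each list discussed and a fixed set. Some genes that this rule takes are not reported here. Gene positions are from GENCODE M21, which held 30934 of the 31053 gene IDs.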

Additional observations from a re-analysis of the deposited data

Results flagged for a closer look

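Ltf differed in its AT38 effect between the Slc7a11-positive class and all other gated neutrophils by 3.16 on the log2 scale (edgeR's quasi-likelihood test of the interaction, adjusted p = 1.14e-06), with values of both AT38 libraries above both vehicle libraries in the class and below them in the other neutrophils. The difference was 1.93 in cells thinned to 1000 UMIs (edgeR adjusted p = 0.952) and 3.26 with DESeq2 (adjusted p = 0.00121). The AT38 effect on Ltf did not pass within either set of cells (edgeR adjusted p = 0.446 in the class and 0.484 in all other gated neutrophils).

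Ccr7 differed by -4.11 on the log2 scale (edgeR adjusted p = 5.31e-07). It was at 15.5 and 0 CPM with AT38, against 189 and 187 CPM with vehicle in the class, and at 102 and 212 CPM with AT38, against 163 and 201 CPM with vehicle in all other gated neutrophils. Of its 165 UMIs in members 95.8% sat in 5 cells, and the difference was -2.79 in cells thinned to 1000 UMIs (edgeR adjusted p = 0.994) and -4.07 with DESeq2 (adjusted p = 0.0928).

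Tbc1d4, a Rab GTPase-activating protein gene, differed by -2.26 on the log2 scale (edgeR adjusted p = 0.0195). It was at 25.9 and 13.9 CPM with AT38, against 131 and 96.2 CPM with vehicle in the class, and at 62.0 and 183 CPM with AT38, against 149.9 and 109.6 CPM with vehicle in all other gated neutrophils. Without cells with 2 or more UMIs of Ccr7, Fscn1 and Ccl22 the difference was -0.029 (edgeR adjusted p = 1), without AT38 2 it was -1.06 (edgeR adjusted p = 0.836), and without vehicle 2 it was -2.23 (edgeR adjusted p = 0.0628).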

How the results depend on the processing

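The share of the class among gated neutrophils was lower with AT38 under every alternative run, by -9.85 points in thinned counts and by -7.29 to -4.98 points with 1 library left out. Among kept barcodes the difference was -3.95 points at a mitochondrial maximum of 5% and -2.15 in cells of 2000 to 6000 UMIs. It was -2.97 without the cells rich in Ccr7, Fscn1 and Ccl22, -3.75 in thinned counts, and -2.78 to -2.38 with 1 library left out. Without barcodes with markers of other cells it was -6.01. That filter also took other cell types out of the kept barcodes. As few as 287 were left in a library, against 3003 or more before it, so -6.01 does not compare with the other differences. For AT38 in the class, 15 genes passed with 1 Slc7a11 UMI as minimum, 17 in thinned cells, 2 without barcodes with markers, 0 without the cells rich in Ccr7, Fscn1 and Ccl22, 46 with every gene tested, and 20 to 59 with 1 library left out, where the lone library is assumed to vary like the other group. The labels do not say whether libraries of equal replicate number share a batch. Deviations of AT38 1 and vehicle 1 from their group means correlated at r = -0.122 over 3194 genes, which with 2 libraries per treatment cannot settle it. With the replicate block 5 genes passed and with the crossed replicate block 22. Against the counterparts 193 passed at a mitochondrial maximum of 5%, 31 and 69 with Slc7a11 minimums of 3 and 1, 67 in cells of 2000 to 6000 UMIs, 24 without barcodes with markers, 268 with every gene tested, 207 without the library term, 482 with all other gated neutrophils as reference, and 2 to 228 with 1 library left out. With that other reference Cxcl10 (-0.74), Cxcl3 (-0.15), Ccrl2 (-0.080), Abca1 (-0.44) and Klf4 (-0.49) turned negative, and the cause was not tested. The interaction with the counterparts gave 2 genes with 1 Slc7a11 UMI as minimum, 2 with every gene tested and 1 to 17 with 1 library left out. Against Il1a-positive neutrophils 565 passed with DESeq2, 536 in thinned cells, 346 without barcodes with markers and 551 to 721 with 1 library left out. Against Retnlg-positive neutrophils 117 passed with DESeq2, 164 without barcodes with markers and 101 to 256 with 1 library left out. The interaction with all other gated neutrophils gave 3 genes with DESeq2, 0 in thinned cells, 8 without barcodes with markers, 4 without the cells rich in Ccr7, Fscn1 and Ccl22 and 18 to 44 with 1 library left out. The comparisons with Il1a-positive and Retnlg-positive neutrophils, those with all other gated neutrophils, the crossed block and the removal of cells rich in Ccr7, Fscn1 and Ccl22 were chosen after seeing the data. Summed member UMIs of 144173 to 519944 limit what low genes can show.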
